A study of Mus musculus with 13 samples.

Results

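Nr2f1, Nr2f2, Nr2f6 and Nr2e1, which encode orphan nuclear receptors of the NR2 family, were examined in ATAC-seq peak lists from 13 cultures of mouse oligodendrocyte progenitor cells (OPCs). The 4 genes are 4 of 55536 genes in the GENCODE M21 annotation. They were chosen by name after it was known that, at equal list length, a peak beside Nr2f2 separated brainstem from telencephalon libraries and the Nr2e1 promoter peak separated them the other way. Regional values of the 4 genes are therefore given as a description, with no test, and the tests below concern genotype. With all libraries joined, 56 of 99746 merged peaks lay in a gene body or within 100 kb of it (12 at Nr2f1, 15 at Nr2f2, 13 at Nr2f6 and 16 at Nr2e1).

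ATAC-seq marks open chromatin by the insertion of a transposase. OPCs, the dividing precursors of myelinating oligodendrocytes, had been isolated at postnatal days 5 to 7 from AMGFAP-Cre;K27M litters. The labels spell the line this way, and the study calls it hGFAP-Cre. In this line, Cre under a GFAP promoter that is active in neural progenitors switches on an H3.3 K27M histone knocked into H3-3a. Mice of both sexes were used on a largely FVB background, and tissue was pooled by region and genotype, so a culture stands for several pups. Microglia and endothelial cells had been depleted on a lectin-coated dish, and OPCs had been captured on an antibody to PDGFRα and kept in proliferation medium without differentiation. From brainstem there were 3 control cultures (51, 59 and 61) and 3 K27M cultures (41, 59 and 61), and from telencephalon 3 control cultures (51, 59 and 61) and 4 K27M cultures (41, 51, 59 and 61). Control pups were littermates, whose alleles the labels do not spell out. Telencephalon stands for the cortex, corpus callosum and hippocampus.

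The NR2F proteins, also known as COUP-TFs, and the NR2E1 protein, also known as TLX, bind DNA through zinc fingers and mostly repress transcription through partner proteins. NR2F proteins bind paired copies of the half-site AGGTCA, and NR2E1 prefers the variant AAGTCA. Nr2f1 and Nr2f2 act in the patterning of the developing brain, in neuron and glia formation and, for Nr2f2, in vessels. Nr2f6 is a more widely expressed relative studied mostly in T cells. Nr2e1 keeps neural stem cells of the forebrain and retina in a dividing state.

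The lists held 16879 to 52466 peaks per library, and control telencephalon 59 had the fewest. They give no read counts, so sequencing depth is unknown, and a missing peak means that it was not found at that library's depth. For equal list length, each list was reduced to its 16879 most significant peaks, which left 18 of 30041 merged peaks at the 4 loci (3, 4, 7 and 4 in the gene order above). Fold is how far a peak rises above the background around it in the same library, and its percentile is its place among the folds of the same list. A promoter window took in 2 kb before and 1 kb after each annotated start. The promoters of the OPC genes Pdgfra, Olig1, Olig2, Sox10 and Nkx2-2 had a peak in 13 of 13 libraries, while that of Cspg4 had one in 3. Of other cell types, 3 or 4 of 4 neuron promoters, 1 to 4 of 4 astrocyte, 0 to 3 of 4 microglia and 0 or 1 of 4 endothelial promoters had a peak in each library, with Cx3cr1, Cdh5 and Tek at 0 in all 13. The microglia promoter of P2ry12 had one in 12 libraries (mean fold 3.42) and kept it in 8 at equal list length. Tmem119 had one in 4 libraries, Aif1 in 2, and the endothelial Cldn5 and Pecam1 in 3 and 1. The neuron promoters Snap25, Syt1 and Tubb3 and the astrocyte promoter of Gfap were among those found in every library. The ranges were alike in the regions (neuron 3 to 4 in both, astrocyte 1 to 4 in both, microglia 1 to 2 in brainstem and 0 to 3 in telencephalon), and their part in the values below was not tested. In such bulk libraries, fewer cells with an open site and less opening per cell cannot be told apart.

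All 4 genes lie on the minus strand. Nr2f2 (ENSMUSG00000030551.14) spans chr7:70351944-70366735 on mm10, and 2 peaks just past its 3′ end carried the regional difference. The near one, chr7:70350473-70351654 at equal list length, starts 290 bp beyond the gene, and the far one, chr7:70345869-70347030, starts 4914 bp beyond it, between the transcripts Gm44946 and Gm44948, whose promoter windows it touches. Nr2e1 (ENSMUSG00000019803.11) spans chr10:42561963-42583632, and its promoter peak, chr10:42582083-42584740, also covers alternative starts of the divergent gene Ostm1. Nr2f1 (ENSMUSG00000069171.14) spans chr13:78188973-78199757, and its strongest peak, chr13:78162087-78164073, lies 24900 bp downstream inside Fam172a and the predicted RNA gene Gm38604.

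The following stretches are common to all libraries that kept each peak at equal list length, cut to the central 300 bases where longer, and read from the GRCm38.p6 assembly. They are shown because these peaks carry the contrast between a regional and a shared site. The near Nr2f2 stretch is chr7:70350993-70351292 (plus strand, 6 libraries), the far one chr7:70346210-70346509 (plus strand, 5 libraries) and the Nr2e1 one chr10:42583656-42583791 (minus strand, 7 libraries, ending before the first exon upstream). The Nr2f1 one is chr13:78163140-78163439 (plus strand, 13 libraries). Its common stretch was first ended before the next exon start, so it is not the centre of the peak. The Nr2f2 and Nr2e1 stretches overlap no annotated exon, and that of Nr2f1 lies in an intron of Fam172a and an exon of Gm38604. Capitals mark CpG pairs.
Nr2f2 near downstream peak: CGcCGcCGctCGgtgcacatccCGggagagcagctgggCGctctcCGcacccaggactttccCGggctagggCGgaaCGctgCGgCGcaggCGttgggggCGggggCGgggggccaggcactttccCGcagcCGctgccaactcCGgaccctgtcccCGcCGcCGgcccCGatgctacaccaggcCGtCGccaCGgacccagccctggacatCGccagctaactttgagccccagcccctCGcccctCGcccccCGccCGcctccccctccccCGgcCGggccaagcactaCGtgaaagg
Nr2f2 far downstream peak: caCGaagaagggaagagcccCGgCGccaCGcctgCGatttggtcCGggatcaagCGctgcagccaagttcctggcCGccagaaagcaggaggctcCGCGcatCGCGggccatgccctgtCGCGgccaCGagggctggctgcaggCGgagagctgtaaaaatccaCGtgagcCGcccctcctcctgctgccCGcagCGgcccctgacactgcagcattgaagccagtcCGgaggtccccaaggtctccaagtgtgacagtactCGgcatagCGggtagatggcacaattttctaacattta
Nr2e1 upstream of the start: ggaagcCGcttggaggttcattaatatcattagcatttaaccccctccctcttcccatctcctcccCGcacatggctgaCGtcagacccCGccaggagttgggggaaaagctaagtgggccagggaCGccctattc
Nr2f1 far downstream peak: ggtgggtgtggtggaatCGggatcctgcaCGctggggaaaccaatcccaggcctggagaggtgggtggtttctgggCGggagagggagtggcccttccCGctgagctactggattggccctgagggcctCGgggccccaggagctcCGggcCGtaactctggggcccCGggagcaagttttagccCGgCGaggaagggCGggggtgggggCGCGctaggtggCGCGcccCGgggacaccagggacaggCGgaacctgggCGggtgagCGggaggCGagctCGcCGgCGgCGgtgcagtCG

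The near Nr2f2 stretch held 33 CpG pairs and 75.3% G or C, the far one 23 and 63.0%, and the Nr2f1 stretch 25 and 72.0%. The centres of 17076 merged peaks found in at least 6 equal-length lists had a median of 11 CpG pairs (quartiles 4 and 26) and 56.3% G or C in 300 bases. The Nr2e1 stretch, at 136 bases, held 5 CpG pairs and 56.6% G or C, against medians of 5 and 56.6% in windows of that length. The receptors' own motifs were searched on both strands as the half-site AGGTCA, its variant AAGTCA and the direct repeat of AGGTCA with 1 letter between, which contains the first. None of the 4 stretches held any of them. Of the 300-base peak centres, 12.3% held AGGTCA, 12.4% held AAGTCA and 0.05% held the repeat. In the 136-base windows the shares were 5.55%, 5.69% and 0.01%.

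The near Nr2f2 peak was kept in all 6 brainstem libraries and in none of the 7 telencephalon libraries at equal list length. Of the 30041 merged peaks, 14 separated the regions this way (0.0466%) and 8 the other way (0.0266%), which together are 0.0732%. In the deposited lists it was also found in 5 of 7 telencephalon libraries, at lower fold. The fold was 3.22, 2.85 and 3.65 in control brainstem cultures 51, 59 and 61, and 3.37, 2.99 and 2.72 in K27M brainstem cultures 41, 59 and 61. It was 2.33 and 2.56 in control telencephalon cultures 51 and 61, and 2.30, 2.34 and 2.59 in K27M telencephalon cultures 41, 51 and 59. The brainstem folds, 3.13 ± 0.35 (SD, n = 6), were all above the telencephalon folds, 2.42 ± 0.14 (SD, n = 5). No peak was found in control telencephalon 59 and K27M telencephalon 61. By p-value the peak ranked between 7757 and 12444 in the brainstem lists and between 24950 and 37119 in the telencephalon lists, on either side of the limit at rank 16879. As a share of each list's length the ranks were 15.4 to 44.4% and 70.2 to 87.1%, which did not overlap either. Telencephalon libraries without the peak give no value to these ranges. The peak was known beforehand to separate the regions by rank. How many other merged peaks have folds or rank shares apart in this way was not counted, so it cannot be said whether that is unusual.

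The far Nr2f2 peak was kept in 5 of 6 brainstem libraries and 0 of 7 telencephalon libraries. Its fold was 2.66, 2.72 and 3.00 in the control brainstem cultures and 3.35, 2.90 and 2.59 in the K27M brainstem cultures. In telencephalon it was 2.55 and 2.65 in control cultures 51 and 61 and 2.56, 2.90 and 2.69 in K27M cultures 41, 51 and 61. Here the folds of the regions overlapped (brainstem 2.87 ± 0.28, n = 6, and telencephalon 2.67 ± 0.14, n = 5, SD). The brainstem library that did not keep it, control 51, had it at rank 17034, the second closest to the limit of the member peaks that were left out. The closest was the Ushbp1 and Babam1 promoter peak of the Nr2f6 locus in K27M brainstem 41, at rank 16972. The Nr2f1 peak 9.6 kb upstream in K27M brainstem 59 was the last one kept, at rank 16868, followed inward by the same peak in control telencephalon 51 at 16777.

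**Figure D1:**
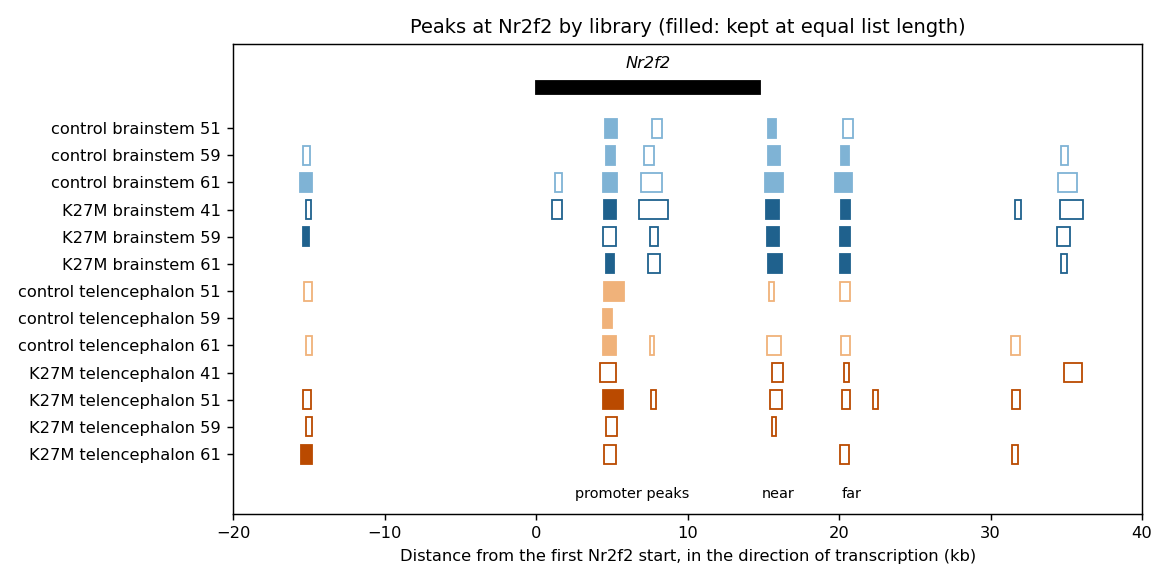
Peaks of each library around Nr2f2, by distance in kb from its outermost start in the direction of transcription (horizontal axis), with 1 row per library coloured by group and the gene as a black bar. Filled boxes were kept at equal list length and open boxes only in the deposited list; the near peak is filled in 6 brainstem rows and in none of the 7 telencephalon rows.

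Within Nr2f2, the main promoter peak did not follow the downstream peaks. It covered chr7:70360948-70362552, upstream of an internal start 6142 bp into the gene, and was found in 13 of 13 deposited lists and in 9 equal-length lists (3 control and 2 K27M lists from brainstem, 3 control and 1 K27M from telencephalon). Its fold was 2.68 ± 0.30 in brainstem (SD, n = 6) and 2.80 ± 0.36 in telencephalon (SD, n = 7). A weaker promoter peak over the next internal starts, chr7:70358047-70359968, was found in all 6 brainstem lists at folds of 2.03 to 2.24 and in control telencephalon 61 and K27M telencephalon 51 at 2.32 and 2.12, and no library kept it at equal list length. The window of the outermost start held no peak in any library. The flank also held a peak 14790 bp upstream in 9 libraries, split 4 of 6 and 5 of 7 by region, whose folds ran from 2.46 to 4.17 and included the highest of the locus. Of the weaker peaks, one 25957 bp downstream was found in 1 library (K27M brainstem), one 57573 bp upstream in 1 (K27M telencephalon) and one 89041 bp upstream in 3, at mean folds of 2.99, 2.79 and 2.71. A peak 19611 bp downstream was found in 5 of 6 brainstem libraries and 1 of 7 telencephalon libraries, at folds of 2.13 to 3.09. At equal list length the Nr2f2 locus held 2, 3 and 4 peaks in the control and 3, 3 and 3 in the K27M brainstem libraries, and 0 or 1 in every telencephalon library. The means were 3.00 ± 0.63 (SD, n = 6) and 0.714 ± 0.488 (SD, n = 7), while in the deposited lists they were 6.83 ± 2.48 and 4.86 ± 2.61.

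At Nr2e1 the promoter peak was kept in all 7 telencephalon libraries and in none of the 6 brainstem libraries. Its folds did not separate the regions. They were 2.54, 2.26 and 2.63 in control telencephalon cultures 51, 59 and 61, and 2.67, 2.90, 2.80 and 2.56 in K27M telencephalon cultures 41, 51, 59 and 61. In brainstem the peak was found at 2.61 and 3.12 in control cultures 51 and 61 and at 2.59 and 2.51 in K27M cultures 41 and 61, and was not found in either culture 59. The highest fold was thus in a brainstem library, and the means were 2.62 ± 0.21 (SD, n = 7) in telencephalon and 2.71 ± 0.28 (SD, n = 4) in brainstem. The rank by p-value was 9723 to 15486 in telencephalon and 20934 to 24622 in brainstem, with the limit at rank 16879 between them. These ranks come from lists of unequal length, and the −log10 p itself overlapped (3.98 to 13.5 and 4.11 to 6.98), as did the rank as a share of the list (19.5 to 85.5% and 41.7 to 75.4%). The 85.5% belonged to control telencephalon 59, whose whole list is 16879 peaks long, so that any peak of it is kept. Without that library the peak still separated the regions at equal list length, and the highest share in telencephalon was 34.2%. The peak covered 499 to 2415 bp (median 1943) in telencephalon and 389 to 2080 bp (median 1389) in brainstem, which overlapped. The stretch shared by the 7 telencephalon peaks, chr10:42583656-42584154, lies upstream of the Nr2e1 start, over the alternative Ostm1 starts, so the peak cannot be given to one of these genes.

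Other peaks near the Nr2e1 start were weak. One 7389 bp upstream was found in 5 of 7 telencephalon libraries (2 control and 3 K27M, folds 2.33 to 2.71) and 0 of 6 brainstem libraries, and none was kept at equal list length. A second promoter window, over internal starts, held a peak only in K27M telencephalon 51 and 61, at folds of 1.93 and 1.98. A peak in the gene body was found in 1 control brainstem library at a fold of 3.28, and one 30268 bp upstream in 1 brainstem and 4 telencephalon libraries at folds of 2.57 to 3.04. The strong peaks of the locus belong to other genes: Snx3 (mean fold 4.24, percentile 93.1), Ostm1 at its main start (3.87, percentile 83.4) and Afg1l (3.59, percentile 77.7), each in 13 of 13 deposited and equal-length lists. At equal list length the locus therefore held 4 peaks in every telencephalon library and 3 in every brainstem library.

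**Figure D2:**
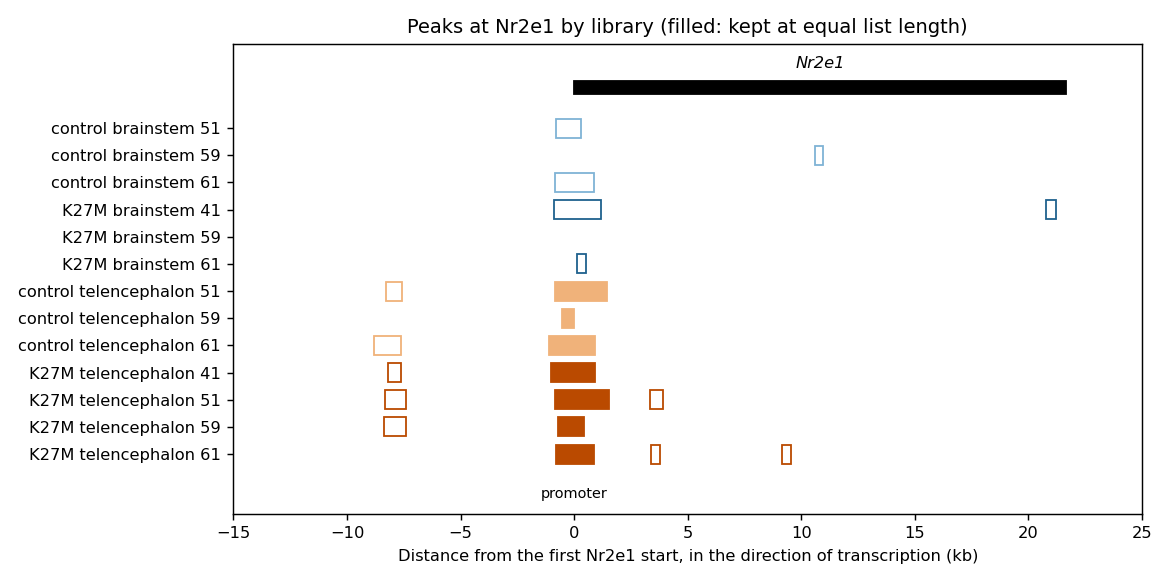
Peaks of each library around Nr2e1, drawn as for Nr2f2, by distance in kb from the outermost start in the direction of transcription. The promoter peak is filled (kept at equal list length) in all 7 telencephalon rows, open in 4 brainstem rows and missing from both brainstem cultures 59.

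**Figure D3:**
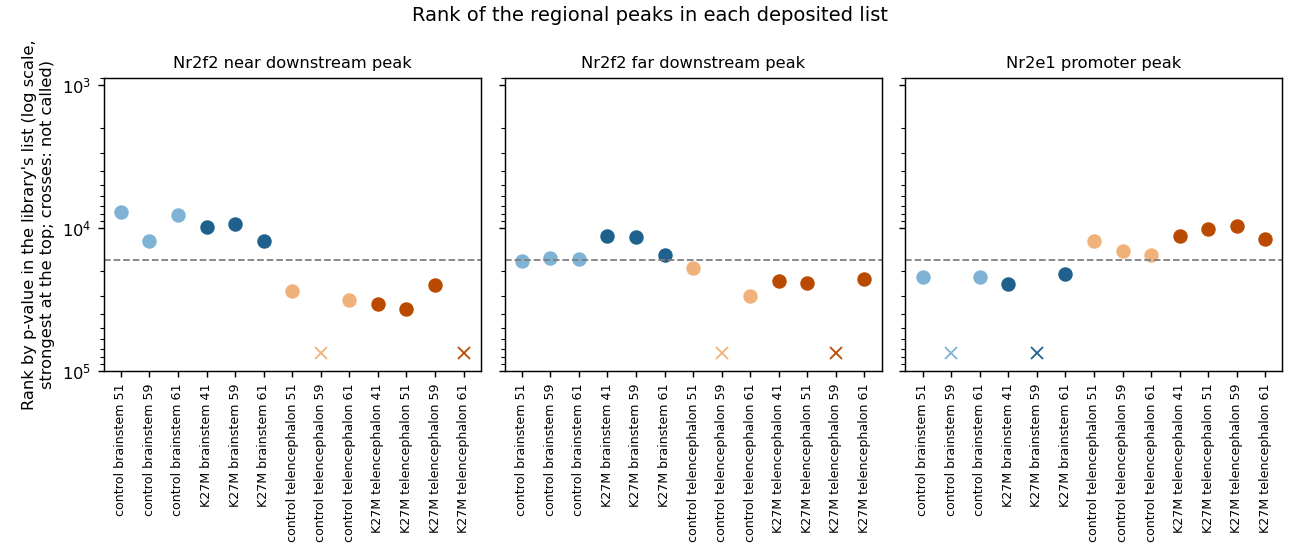
Rank by p-value (vertical axis, logarithmic, strongest at the top) of the near and far Nr2f2 peaks and the Nr2e1 promoter peak in each deposited list, coloured by group, with the limit of 16879 as a dashed line and crosses for libraries without the peak. The near Nr2f2 peak lies above the line in 6 brainstem libraries, and the Nr2e1 peak in 7 telencephalon libraries.

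Nr2f1 showed no peak that separated the regions. Its promoter peak, chr13:78199598-78204234, lies upstream of the outermost start (reaching over it in control telencephalon 61 alone), in the divergent RNA gene A830082K12Rik. The merged peak was found in 13 of 13 lists of either length with a low fold (2.44 ± 0.15, SD, n = 13, percentile 13.8). Its extent differed between libraries. In 6 of 6 control libraries it was made of 2 separate calls with 1048 to 1323 bp between them, whereas in 6 of 7 K27M libraries (all but telencephalon 59, with a gap of 1371 bp) it was 1 continuous call. Where there were 2 calls, the one farther upstream lay beyond the promoter window. In control brainstem 61 only that call was kept at equal list length. The promoter windows thus held a peak in 12 equal-length lists. In the deposited lists the highest fold in these windows was 2.35 ± 0.13 (SD, n = 13). The calls covered 2534, 2776 and 2752 bp in control and 3854, 3731 and 3492 bp in K27M brainstem, 2828, 2049 and 3344 bp in control and 3659, 3866, 2346 and 3707 bp in K27M telencephalon. The separate calls came from lists of 16879 to 52466 peaks and the continuous ones from lists of 27768 to 52164 peaks. This arrangement was noticed after the calls were seen, so it was not tested, and whether calls are joined also depends on settings of the caller and on depth. How many other merged peaks divide the genotypes in this way was not counted, so it cannot be said whether it is unusual. A further promoter peak over internal starts, chr13:78194235-78196265, was found in 9 libraries at folds of 2.07 to 2.41 and was not kept at equal list length. The far downstream peak had the highest fold of the locus, 4.22 ± 0.38 in brainstem (SD, n = 6) and 3.82 ± 0.59 in telencephalon (SD, n = 7), with percentiles of 63.8 to 97.3. The regions overlapped there, with ranges of 3.64 to 4.60 and 3.20 to 5.00. The peak 9569 bp upstream was found in 12 deposited lists at folds of 2.43 to 3.47 and kept in 8 (1 of 3 control and 3 of 3 K27M brainstem, 1 of 3 control and 3 of 4 K27M telencephalon). Of the other peaks, one 16458 bp downstream was in 2 telencephalon libraries, one 4419 bp downstream in 6 libraries and one 47755 bp upstream in 1 telencephalon library, at mean folds of 2.74, 2.58 and 2.48. The locus held 3.00 ± 0.63 and 3.00 ± 0.58 peaks in brainstem and telencephalon at equal list length (SD, n = 6 and 7).

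Nr2f6 (ENSMUSG00000002393.14, chr8:71374123-71381960) sits among other promoters with peaks. Its own promoter peak, chr8:71380935-71382759, was found in 12 of 13 libraries, missing from control telencephalon 59. Its fold was 2.37, 2.69 and 2.72 in control and 2.35, 2.43 and 2.2 in K27M brainstem cultures, and 2.06 and 2.32 in control telencephalon cultures 51 and 61. In K27M telencephalon it was 3.10, 3.57 and 3.08 in cultures 41, 51 and 59, above all other libraries, and 2.16 in culture 61, among the lowest. At equal list length it was kept in those 3 libraries and in control brainstem 59. A peak over the internal start 6170 bp into the gene was found in K27M brainstem 41 alone, at a fold of 1.97. The neighbouring promoters had higher or like folds: Ankle1 4.03, Ocel1 3.30, the shared window of Ushbp1 and Babam1 3.30, that of Abhd8 and Mrpl34 2.73, Use1 2.63 and Dda1 2.59. Of these 6, 5 were found in 13 libraries and that of Ushbp1 and Babam1 in 12. A peak 58718 bp upstream was in 2 libraries. The locus held 5.83 ± 0.41 and 6.29 ± 0.76 peaks in brainstem and telencephalon at equal list length (SD, n = 6 and 7).

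Across the 11 member peaks found in all libraries, none had folds that did not overlap between the regions once each library was centred on its own median, against 24 of 13075 such peaks overall (0.184%). In the deposited lists, no member peak separated the regions completely (7 of all merged peaks did, 0.00702%). Neither the near Nr2f2 peak nor the Nr2e1 promoter peak is among these 11. At the promoters, the difference of brainstem minus telencephalon in centred log2 fold was -0.06 for Nr2f1, -0.12 for Nr2f2, -0.14 for Nr2f6 and -0.04 for Nr2e1, and the spread within regions (pooled SD) was 0.18, 0.12, 0.23 and 0.10.

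The question of genotype was whether K27M changed accessibility at these loci. At the 11 member peaks found in all 13 libraries, none passed the test (limma on centred log2 fold, mean of the within-region differences, Benjamini-Hochberg adjusted p over 13075 peaks), and none of the 13075 did (0%). At an unadjusted p under 0.05 there was 1 member peak and 584 of all (4.47%). The differences of K27M minus control ran from -0.15 to 0.13, with a median of 0.05 against 0.00 over all peaks, and 7 of 11 were above 0. Those above 0 were all promoter peaks of neighbouring genes (Afg1l, Snx3, Use1, Ocel1, Ankle1, Abhd8 and Dda1). The Nr2f1 promoter peak, the far downstream peak of Nr2f1 and the Nr2f2 promoter peak differed by -0.04, -0.01 and -0.15. The Ostm1 promoter peak differed by -0.05. Within brainstem and within telencephalon 0 of 11 passed, and no peak differed in its genotype effect between the regions (0% of 13075 in each of these fits). At an unadjusted p under 0.05 these fits held 0 member peaks each and 536, 521 and 453 of all. No member peak had folds that did not overlap between genotypes (9 of 13075, 0.0688%), and none separated the genotypes completely at equal list length (3 of 30041, 0.00999%).

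The 1 member peak was the main Nr2f2 promoter peak, with a K27M minus control difference in log2 fold of -0.15 (SE 0.07, unadjusted p = 0.0395, limma, adjusted p = 0.999). Centred log2 fold was -0.34, -0.29 and -0.42 in control brainstem cultures 51, 59 and 61 and -0.44, -0.64 and -0.42 in K27M brainstem cultures 41, 59 and 61. It was -0.17, -0.24 and -0.25 in control telencephalon cultures 51, 59 and 61 and -0.43, -0.29, -0.29 and -0.47 in K27M telencephalon cultures 41, 51, 59 and 61. Within each region every K27M value was below every control value, in brainstem by less than the rounding shown, and 13 of 11486 promoters had this arrangement (0.113%). In the two-sided exact permutation test of the promoter fold, over 700 arrangements of genotype within region, the difference was again -0.15 (unadjusted p = 0.00714, adjusted p = 0.998 over 11486 promoters with a peak in every library). Of those promoters 488 had an unadjusted p under 0.05 (4.25%) and 0% passed after adjustment. Without centring, the Nr2f2 difference was -0.12 (unadjusted exact p = 0.23).

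The Nr2f1 promoter, found in every library as well, differed by 0.08 (exact permutation p = 0.461, adjusted p = 0.998). Its centred values were -0.58, -0.59 and -0.92 in control and -0.71, -0.44 and -0.41 in K27M brainstem, -0.41, -0.41 and -0.78 in control and -0.49, -0.79, -0.52 and -0.47 in K27M telencephalon, and overlapped in both regions. Without centring the difference was 0.11 with an unadjusted exact p of 0.00857 and an adjusted p of 1, so that the scaling decided which of these 2 promoters had the smaller p. Uncentred folds were 2.14 to 2.41 in control and 2.32 to 2.61 in K27M libraries. These folds took only calls that reach a promoter window. They left out the farther call of libraries with 2 calls there, whereas a continuous call spans both places. The part of these call boundaries in the difference was not tested. Over all alternatives the adjusted p stayed between 0.982 and 1 for Nr2f1 and between 0.906 and 1 for Nr2f2. The limma fit, which took the higher of the calls joined in the Nr2f1 peak, gave -0.04 (SE 0.08, adjusted p = 0.999). The genotype effects at these promoters did not pass a test of their difference between regions (exact p = 0.327 for Nr2f1 and 0.991 for Nr2f2). Nr2f6 and Nr2e1 lack a promoter peak in 1 and 2 libraries and were not tested with all 13. Without control telencephalon 59, which lacks the Nr2f6 peak, the Nr2f6 promoter differed by 0.14 (exact permutation p = 0.313, adjusted p = 1). Centred with all libraries, its values were -0.54, -0.32 and -0.58 in control and -0.75, -0.55 and -0.54 in K27M brainstem. In telencephalon they were -0.63 and -0.74 in control cultures 51 and 61, and -0.125, -0.17, -0.14 and -0.66 in K27M cultures 41, 51, 59 and 61. The limma fit without that library gave 1 of 14 member peaks an unadjusted p under 0.05 in telencephalon and 1 for the difference between regions (581 and 549 of 17350 peaks), and 0 after adjustment.

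**Figure D4:**
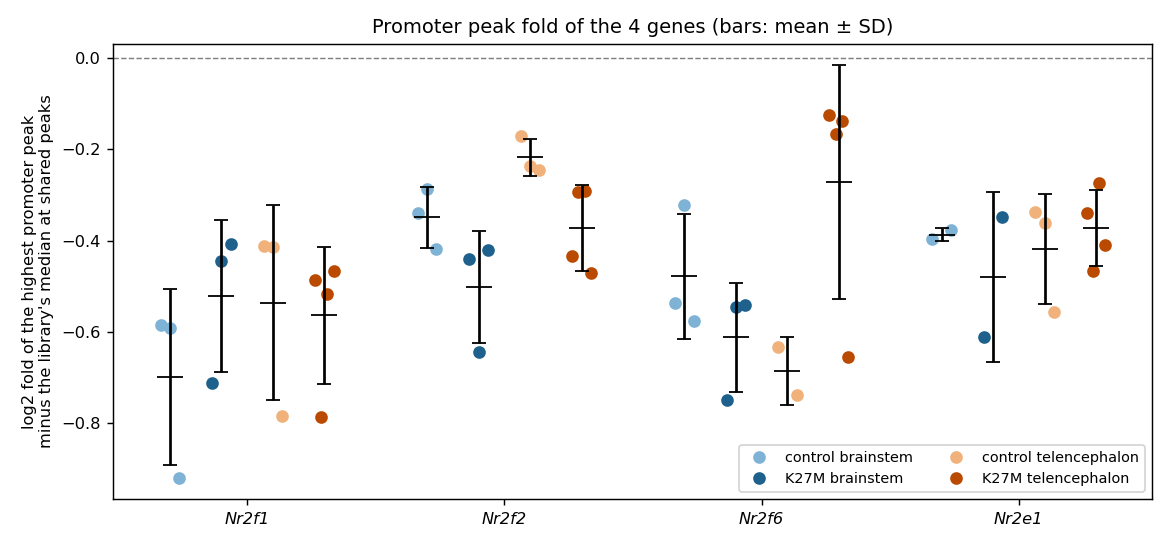
log2 fold of the highest promoter peak minus the library's median over shared peaks (vertical axis) for each gene, with 1 point per library coloured by group and bars for the mean ± SD of each group. At Nr2f2 the K27M points lie below the control points of the same region, and at Nr2f6 the points of 3 K27M telencephalon libraries lie above all others.

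**Figure D5:**
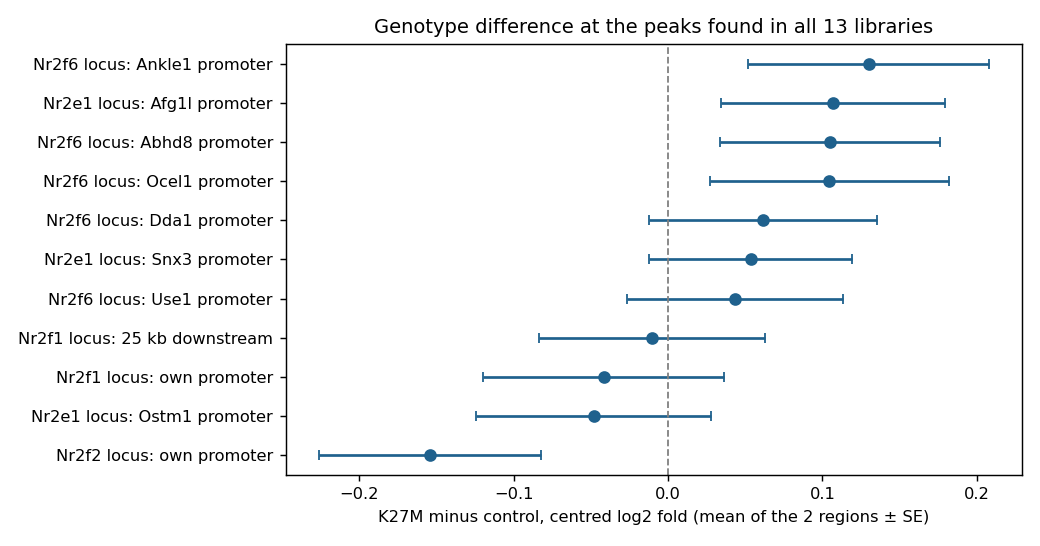
K27M minus control difference in centred log2 fold (horizontal axis, mean of both regions ± SE from limma) at the 11 member peaks found in all 13 libraries. The values run from -0.15 at the Nr2f2 promoter to 0.13 at the Ankle1 promoter, and none passed after adjustment.

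Detection was compared as well. Of 11706 merged peaks found in 5 to 8 libraries, 147 had an unadjusted p under 0.05 by two-sided Fisher's exact test (1.26%), 0% passed after adjustment, and the 5 at the member loci were not among the 147 (Fisher's exact p from 0.592 to 1). With so few libraries this test could not have called a single peak by itself after adjustment, so no conclusion is drawn from it. The peak 19611 bp downstream of Nr2f2 was in 4 of 7 K27M and 2 of 6 control libraries, the one over its next internal starts in 4 and 4, the one 7389 bp upstream of Nr2e1 in 3 and 2, the one 30268 bp upstream of Nr2e1 in 2 and 3 and the one 4419 bp downstream of Nr2f1 in 3 and 3. The number of peaks within 100 kb differed between K27M and control by -0.92 at Nr2f1, 1.58 at Nr2f2, 0.25 at Nr2f6 and 0.46 at Nr2e1 (mean of both regions, two-sided exact permutation p = 0.341, 0.293, 0.779 and 0.667, all with an adjusted p of 1 over 48377 genes). Each separate call counts in this number, those of the Nr2f1 promoter peak included. The median difference over all these genes was 0.25, and 349 of them had an unadjusted p under 0.05 (0.721%), none after adjustment (0%). The deposited counts behind them ranged from 1 to 11 at Nr2f2, 3 to 8 at Nr2f1, 5 to 11 at Nr2f6 and 3 to 10 at Nr2e1, with the lowest Nr2f2 and Nr2f6 counts in control telencephalon 59, the shortest list.

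No relative or partner of these receptors was called either, in exact tests with the same few arrangements. Among 8 other NR2 genes, Nr2c1, Nr2c2, Rxra and Rxrb had a promoter peak in all 13 libraries, Rxrg in 12, Hnf4g in 9, Nr2e3 in 7 and Hnf4a in 0. RXR proteins, encoded by the Rxr genes, pair with many nuclear receptors, and HNF4A is a liver and gut regulator. Among 11 genes for co-regulators, 7 had a promoter peak in all libraries, among them Zfpm2, which encodes the COUP-TF partner FOG2, Rere, Sin3a and Bcl11a. The TLX partners Kdm1a and Hdac5 had one in 11 and 12, Atn1 in 12 and Bcl11b in 5. Of the 4 NR2 genes and 7 co-regulator genes that could be tested for promoter fold, 0 passed the exact permutation test before or after adjustment (1 higher and 3 lower, and 2 higher and 5 lower, in K27M). The lowest p was that of Rxra, with a difference of -0.13 (unadjusted p = 0.0571, adjusted p = 0.998). The median differences were -0.07 and -0.05, against 0.00 over all promoters. At equal list length these promoters did not divide by region as Nr2e1 did: Zfpm2, Rere, Sin3a and Nr2c2 were kept in all 13 lists, and Bcl11a, for one, in 2 of 6 brainstem and 4 of 7 telencephalon lists.

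Patterns like that of the Nr2e1 promoter were also seen at positional genes used to check the region labels. Emx2, a cortical patterning gene, kept a promoter peak in 6 of 7 telencephalon and 0 of 6 brainstem equal-length lists. Lhx2 did so in 7 of 7 and 3 of 6. The brainstem genes Irx2 and Hoxb3 did so in 6 of 6 and 2 of 6 brainstem lists and in 2 of 7 and 0 of 7 telencephalon lists, and Hoxa3 in none. By the rank correlation over the 13 libraries of the promoter percentile at equal list length (0 where no peak was kept), the genes most like Nr2f2 were BC030500 (Spearman's rho 0.86), Vamp5 (0.82) and 6530411M01Rik (0.79), and those most like Nr2f6 were Tmem52b (0.99), 4922502D21Rik (0.82) and Ankrd52 (0.81). Those most like Nr2f1 were Igf2bp3 (0.82), Tollip (0.81) and H1fx (0.79). All of these genes were picked as the highest of 6173 genes, all points share the same libraries, and the Nr2f1 percentiles were 2.83 or less. The Nr2f6 promoter peak was kept in 4 of 13 lists, and that of Tmem52b in 1 brainstem and 3 telencephalon lists. Most points behind that correlation are therefore ties at 0.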

How the data were processed

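Open chromatin was assayed by Omni-ATAC in 13 OPC cultures. Per the labels and the methods of the study, the authors trimmed reads with Trim Galore 0.6.7 and cutadapt 3.4, aligned them to mm10 with BWA 0.7.17-r1188 and ran MACS2 2.2.7.1 in broad mode, library by library; the cutoff of the calls is not given in the sources used here. The deposited lists hold for each peak a fold enrichment, which is the ratio of its signal to the background around it. The deposited p-values and q-values are on a −log10 scale, and the lists themselves were not normalised between libraries. The study did adjust its ATAC-seq promoter counts between libraries, by a loess fit. Without counts, depth and its precision are unknown.

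Peaks overlapping by 1 bp or more were merged, and a library's fold was that of its highest peak there. For genotype tests, log2 fold was centred on the library's median over peaks found in all 13 libraries and fitted with limma 3.58.1 (R 4.3.3; 4 group means, trend), since the promoter read counts that the study tested are not used here. Exact permutation tests exchanged genotype within region (700 arrangements, smallest p 0.00143), in Python 3.11.15, and Fisher's test used scipy 1.17.1. With so few arrangements, an adjusted p under 0.05 was possible only if a great many genes reached the smallest p together. The same holds for the peaks in Fisher's test, given so few libraries. P-values were adjusted by Benjamini-Hochberg over all features, with a threshold of 0.05. P-values measure the spread between these cultures, and nothing says that they came from separate litters. Scripts were tested on simulated data. Alternatives were each library left out, a culture block, no centring, other list lengths, thresholds, windows, flanks and overlaps.

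Named peaks were those over member promoters, the 5 others per locus with the highest mean percentile, and all that separated groups; any further ones were picked after their values were seen. The 3 most similar genes were taken for each member whose promoter peak was in some equal-length lists; those for Nr2e1, and the values of some co-regulator genes, are not reported here. Members and lists were chosen with earlier results of these data known. Sequences came from GRCm38.p6, which shares mm10 coordinates, and exons from GENCODE M21 and RefSeq.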

Additional observations from a re-analysis of the deposited data

Results flagged for a closer look

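Of 66 sets of values checked, 11 had a library set apart from the rest of its group by Dixon's test. The test's nominal rate of about 1 in 20 sets is for continuous values and does not apply to all of these. Some sets are small peak counts, where a single library that differs from otherwise equal counts is always flagged. Sets by group and by region also share libraries. In K27M telencephalon (n = 4), centred log2 promoter fold was low at Nr2f1 in culture 51 (-0.79, others -0.52 to -0.47) and at Nr2f6 in culture 61 (-0.66, others -0.17 to -0.13). The fold of the Afg1l promoter peak, in the Nr2e1 locus, was high in culture 51 (4.82, others 3.34 to 3.58), which also stood apart from all telencephalon libraries (3.12 to 3.64). In culture 61, 2 peaks were kept at equal list length at Nr2f1 (others 3) and 6 at Nr2f6 (others 7).

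The other flagged values belonged to the shortest list and to K27M brainstem 41. Control telencephalon 59 had 5 deposited peaks at Nr2f6 (other telencephalon libraries 8 to 9) and a fold of 2.36 at the Ocel1 promoter (others 3.23 to 3.61). K27M brainstem 41 kept 5 peaks at Nr2f6 (other brainstem libraries 6) and had folds of 5.61 at the Ankle1 promoter (others 3.47 to 4.26) and 3.18 at the Abhd8 and Mrpl34 promoter (others 2.60 to 2.76). No genotype effect tested at a member with all 13 libraries passed a test of its difference between the regions. The promoter folds of Nr2f6 and Nr2e1 could not be tested in this way.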

How the results depend on the processing

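The number of member peaks that separated the regions, 2 at equal list length, was 0 in the deposited lists, 0 among peaks with a p of at most 1e-10 and 1 when a library's peaks had to cover 50% of the merged peak (Nr2f2 stayed). It was 2 or 3 with a library left out. The brainstem minus telencephalon difference in peak number, 2.29 at Nr2f2, -0.45 at Nr2f6 and -1 at Nr2e1, became 0.55 at Nr2f2 and -0.33 at Nr2e1 among peaks with a p of at most 1e-10, and 0.36 at Nr2f6 and -1.57 at Nr2e1 in the deposited lists. For genotype, no member peak or promoter passed after adjustment under any alternative. The exact permutation tests and Fisher's test could not have called a single gene or peak by itself, given their smallest possible p. No conclusion is drawn from them here. The difference in peak number turned from -0.92 to 0.33 at Nr2f1 for peaks with a p of at most 1e-10 and from 1.58 to -0.25 at Nr2f2 at equal list length, and at Nr2f6 ran from -0.42 to 0.83 with a library left out, below 0 without control brainstem 51 or control telencephalon 59. The causes were not tested.

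Culture numbers were not taken as pairs in the main tests, although the study allowed for matched cultures in its own models. Of same-numbered pairs of libraries, 4 of 16 had a correlation of deviations above 0.1 (median 0.09), against 7 of 47 different-numbered pairs (median -0.03). Of 13 libraries, 8 correlated best with their own number, so the number may mark something shared, which was not tested. With culture number as a replicate block the Nr2f2 promoter difference was -0.14 (exact p = 0.0278, adjusted p = 1), and the block changed no call. Equal list length and a p of at most 1e-10 left no member promoter with a peak in every library, and the window of 1 kb each way left Nr2f1 alone. The lists hold no depth, so a peak below a list's limit may be open chromatin that was not detected.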
